A study of Mus musculus with 2 samples.

Results

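Immediate early genes were followed in CD45+ leukocytes of the mouse heart 1 week after sham surgery or transverse aortic constriction (TAC), a suture around the aortic arch that makes the left ventricle pump against a raised pressure. The set holds 32 named genes of the 27809 genes in the matrix. The genes were chosen by name as members of this response, with earlier results of these data known, and no level in these cells entered the rule. All mice were male, 8 weeks old and of C57BL/6 background, and the hearts came from 5 groups. These were WT sham, CD3e-/- sham, WT TAC, CD3e-/- TAC, and a group of WT mice with TAC and repeated injections of a CD8 antibody. CD3e-/- mice carry a germline deletion that leaves them without T cells, in sham and TAC alike. Hashtag antibodies marked the group of each cell, and all cells went into 1 common TAS-Seq library, in which beads in microwells carry the barcode of each cell. Each group was therefore 1 sample, the number of hearts behind it is not given in the sources used here, and no test, p-value or standard error could be had. All hearts were digested for 60 min at 37 °C with collagenase II and DNase I, to which the methods of the study add elastase, and a response of these genes to the digestion was not tested.

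Immediate early genes are transcribed within minutes of a signal, without new protein synthesis, through factors such as SRF, CREB and NF-kB that are already in the cell. Their products are transcription factors of the AP-1, EGR, NR4A and KLF families, and feedback inhibitors that dephosphorylate MAP kinases, destroy mRNA or retain NF-kB. Their mRNAs are short-lived. In macrophages they answer to microbial ligands, cytokines, stretch and adhesion, and enzymatic digestion of a tissue is known to induce them as well.

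The promoters of 27 of the 32 genes were found in the RefSeq table of GRCm38.p6, as windows from 250 bases before to 50 bases after a gene start. A gene can have several windows, and the 32851 windows belong to these 27 genes and 26998 other genes. Egr1, Egr3, Ier2, Zfp36l2 and Nfkbiz had no entry. Letters of the CREB site were read in these windows, because CREB is among the factors that act on this gene set. The core TGACG, on either strand, was found for 17 of 27 genes (63.0%) and for 23.0% of the other genes. The complete palindrome TGACGTCA, which contains that core, was found for 4 of 27 (14.8%) and for 2.02% of the other genes. Among the genes with the core were Fos, Junb, Atf3, Nr4a1 and Nr4a2, which carry several results given here, and the 120 bases before their start are shown 5′ to 3′ with each core in capitals.
Fos (chr12:85473770-85473889, plus strand): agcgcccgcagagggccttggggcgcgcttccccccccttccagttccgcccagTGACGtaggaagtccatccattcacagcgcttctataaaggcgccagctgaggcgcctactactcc
Junb (chr8:84978749-84978868, minus strand): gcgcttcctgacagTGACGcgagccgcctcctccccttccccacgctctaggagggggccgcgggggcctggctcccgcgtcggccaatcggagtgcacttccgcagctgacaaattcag
Atf3 (chr1:191183334-191183453, minus strand): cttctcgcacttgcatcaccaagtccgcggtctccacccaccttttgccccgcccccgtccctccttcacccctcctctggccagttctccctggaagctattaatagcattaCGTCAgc
Nr4a1 (chr15:101266726-101266845, plus strand): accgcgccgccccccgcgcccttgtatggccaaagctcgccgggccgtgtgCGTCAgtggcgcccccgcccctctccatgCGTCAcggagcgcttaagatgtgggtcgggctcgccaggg
Nr4a2 (chr2:57124004-57124123, minus strand): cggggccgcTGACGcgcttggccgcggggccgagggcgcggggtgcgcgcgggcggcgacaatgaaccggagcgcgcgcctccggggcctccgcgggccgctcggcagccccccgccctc
The core of Fos ended 62 bases before the gene start and that of Atf3 ended 3 bases before it, while Nr4a1 held 2 cores in this stretch. A kappa B site, the target of NF-kB, was found for 8 of 27 genes (29.6%) against 9.53% of the other genes, and Nfkbia, Nfkbid, Ier3 and Fos were among the 8. A CArG box, the target of SRF, was found for 3 of 27 (11.1%) against 1.80%, in Egr2, Dusp5 and Zfp36. The AP-1 letters TGACTCA, on either strand, were found for 0 of 27 genes against 5.95% of the other genes. These are matches of letters within a short window, and no binding was measured.

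Of 5363 barcodes, 5263 cells with a hashtag were kept, with 835 to 1615 cells and 91899777 to 208758777 reads per group. Sham cells were shallower, with median depths of 75442 and 78372 reads in WT and CD3e-/- sham against 98471 to 117788 reads in the TAC groups. A limit of at least 50000 reads per cell was set after the data were seen. For the classes defined below, it left 15 genes higher in sham in Lyve1-high, 17 in the other macrophage-like, 8 in Ly6c2-high, 9 in Cd209a-high and 5 in B cell-like cells. Of all genes 1.25%, 1.4%, 2.04%, 1.32% and 0.972% were so. Without the limit the counts were 15, 18, 8, 9 and 7 in the same order. No cell barcode was shared between groups. Levels are summed reads of a class of cells in a group, per 1000000 reads of the same cells (CPM), and values are given in the order WT sham and CD3e-/- sham, then WT TAC, CD3e-/- TAC and labelled CD8-depleted TAC. Intervals are exact and at 95%, Poisson for levels and Clopper-Pearson for shares of cells, and cover counting error only, which they understate because reads of 1 molecule are not independent. Ptprc, which encodes CD45, was at 979 to 1069 CPM. Trac, a T cell receptor gene, was read in 38, 5, 45, 4 and 34 cells of the 5 groups. Reads of Cd3e itself were at 17.8 and 3.73 CPM in sham and 10.8, 5.64 and 13.6 CPM after TAC, and whether they cover the deleted part is not given. Cd8a was at 6.55 CPM in the group with CD8 antibody and 7.40 CPM in WT TAC, with reads in 8 of 894 and 16 of 1615 cells. Cd8b1 was at 7.74 and 10.7 CPM in the same groups, with reads in 6 and 12 cells. These are few cells, and the counts of cardiac CD8+ T cells by flow cytometry in the study are not examined here. The group with CD8 antibody is therefore written as labelled CD8-depleted TAC throughout.

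Cells were sorted into classes by 6 genes that are not in the set, namely Csf1r, Lyz2, Lyve1, Ly6c2, Cd209a and Cd79a. Cells with Csf1r and Lyz2 were parted into Lyve1-high macrophage-like cells (75, 31, 51, 15 and 31 cells), Ly6c2-high monocyte-like cells (25, 34, 158, 167 and 142 cells) and the other macrophage-like cells (450, 385, 870, 478 and 429 cells). Cd209a-high cells (94, 94, 132, 41 and 56 cells) had H2-Ab1 at 9799 to 12200 CPM and Flt3 at 68.7 to 131 CPM in the 5 groups. Both are on a list of 6 dendritic cell genes that includes Cd209a. The list summed to 11685 to 14539 CPM in these cells, and was not theirs alone. It summed to 3922 to 7655 CPM in the other macrophage-like cells and 3519 to 5873 CPM in B cell-like cells. B cell-like cells (93, 118, 86, 73 and 67 cells) had Ms4a1 at 1425 to 2053 CPM and Lyz2 at 14.4 to 153 CPM. The remaining 1068 cells entered only the sums over all kept cells. A gene counted as higher in sham when the lower of both sham levels was at least 1.5 times the highest of the 3 TAC levels, with 10 CPM added to each, and as higher in TAC by the mirrored rule. Only genes that reached 50 CPM in some group of a class were compared there.

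Every gene of the set that passed this rule did so with the higher level in sham. By this rule over all 5 groups, such genes were most frequent in the macrophage-like classes. Among them were Fos, Fosb and Egr1, which passed in both macrophage-like classes, and Atf3 and Gadd45b, which passed in all 5 classes. Both were weak in B cell-like cells. Gadd45b did not pass there without the cell with most of its reads in each group. Atf3 was read there in 1 to 11 cells of a group, and its log2 ratio turned to -0.41 with every gate limit doubled. In the other macrophage-like cells 18 of 29 compared genes were higher in sham by the rule, beside 1.33% of all 3992 genes compared, and none was higher in TAC, beside 1.35%. In Lyve1-high cells 15 of 26 were higher in sham, beside 1.09% of all genes, and none in TAC, beside 0.797%. The count was 9 of 31 in Cd209a-high cells (1.36% of all genes), 8 of 30 in Ly6c2-high cells (2.04%) and 7 of 28 in B cell-like cells (0.902%). In these classes none of the genes was higher in TAC, where 1.76%, 3.29% and 0.431% of all genes were. Over all kept cells 18 of 30 genes were higher in sham, beside 2.18% of all genes, and 0 in TAC, beside 3.06%. Both sham levels lay above all 3 TAC levels, at any size, for 27 of 29 genes in the other macrophage-like cells (14.5% of all genes), 20 of 26 in Lyve1-high cells (9.3%), 21 of 30 in Ly6c2-high cells (21.1%), 26 of 31 in Cd209a-high cells (12.9%), 18 of 28 in B cell-like cells (9.41%) and 28 of 30 over all kept cells (21.8%). Klf4 was higher in sham in 4 classes. In Lyve1-high cells its log2 ratio turned to -0.63 among cells with little of the heat shock genes Hspa1a and Hspa1b, a limit set after the data were seen. Jund, Egr3, Ier5, Dusp2, Zfp36l1, Zfp36l2 and Nfkbia passed in no class. Some counted genes reached 50 CPM in sham groups only, so their entry to the comparison rested on the groups in which they were higher. Within the classes these were Egr2, Nr4a2 and Nfkbid in the other macrophage-like cells, and Egr2 and Nfkbid in Lyve1-high cells. They also were Maff in Ly6c2-high, Nr4a2 and Nr4a3 in Cd209a-high, and Atf3 and Ier3 in B cell-like cells.

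**Figure D1:**
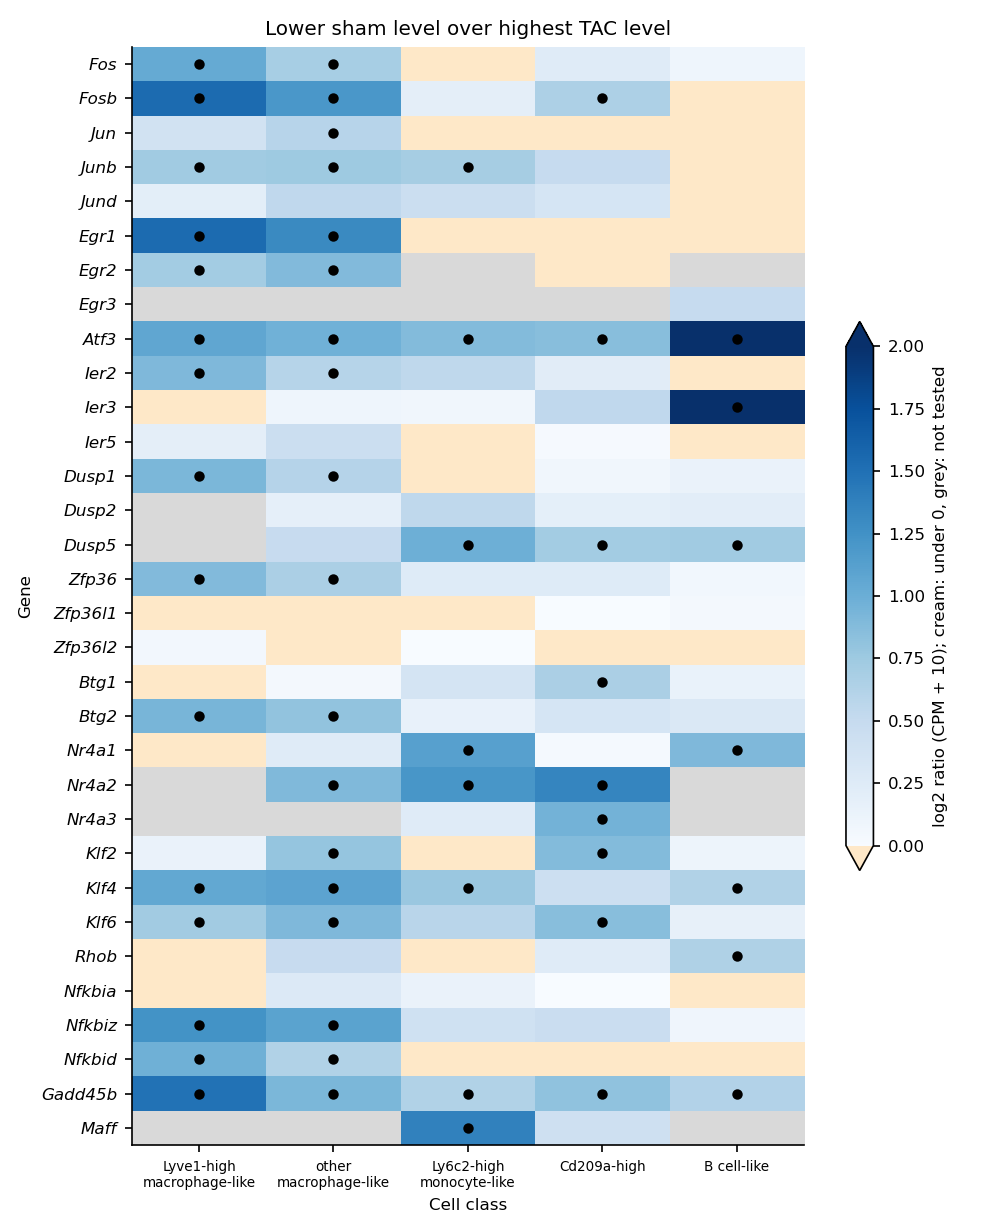
Each row is a gene and each column a cell class. Colour is the log2 ratio of the lower sham level to the highest TAC level (CPM with 10 added); dots mark genes at a ratio of 1.5 or more, cream marks a ratio under 1 and grey a gene under 50 CPM in all 5 groups. The columns of the macrophage-like cells hold 15 and 18 dots, and the B cell-like column holds 7.

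The 32 genes together took 2.71% and 2.51% of the reads of the other macrophage-like cells in sham, and 1.42%, 1.34% and 1.46% after TAC. The sham shares did not overlap those after TAC, and the lower sham share was 1.72 times the highest TAC share. In Lyve1-high cells the shares were 2.44% and 2.86% in sham and 1.29%, 0.851% and 1.02% after TAC, in Ly6c2-high cells 2.45% and 2.25% against 1.84%, 1.76% and 1.70%, in Cd209a-high cells 2.70% and 2.403% against 1.75%, 1.81% and 1.75%, and in B cell-like cells 2.45% and 2.45% against 1.83%, 2.12% and 1.84%. The classes thus had sham shares close to each other, and lay further apart after TAC. The makeup of the groups differed, and Ly6c2-high cells were 2.50% and 4.07% of the kept cells in sham and 9.78%, 18.2% and 15.9% after TAC. With every group given the class makeup of WT sham, the median log2 ratio over the 32 genes in all kept cells was -0.86 for WT TAC to WT sham, -0.85 for CD3e-/- TAC to CD3e-/- sham and -0.83 for labelled CD8-depleted TAC to WT sham. Without that step it was -0.90, -0.90 and -0.80.

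Among the AP-1 genes, whose products pair to form a transcription factor, Fos in the other macrophage-like cells was at 4732 and 4271 CPM in sham against 2633, 2090.3 and 2643 CPM after TAC. Its level in WT sham had an interval of 4711 to 4753 CPM. Both sham groups lay above the 3 TAC groups, and the lower sham level was 1.61 times the highest TAC level. Fosb, a close relative of Fos, differed more, at 922 and 745 CPM in sham against 291, 256 and 318 CPM after TAC, a ratio of 2.30. Jun, the usual partner of Fos, was at 2222 and 1649 CPM in sham against 1089, 847 and 1015 CPM after TAC, and its ratio of 1.51 was just inside the rule. Junb, a weaker activator than Jun, was at 1759 and 1650.1 CPM in sham against 946, 936 and 982 CPM after TAC. Jund, the more constant Jun relative, was at 509 and 431 CPM in sham against 295, 279.6 and 292 CPM after TAC and stayed outside the rule at a ratio of 1.45. Atf3, a stress-induced repressor of cytokine genes in macrophages, was at 839 and 1015 CPM in sham against 367, 376 and 424 CPM after TAC, a ratio of 1.96.

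In Lyve1-high cells Fos was at 4797 and 4689.6 CPM in sham against 2289, 556 and 1798 CPM after TAC. Fosb was at 947 and 970.2 CPM in sham against 319, 83.1 and 155 CPM after TAC. Atf3 was at 425 and 832 CPM in sham against 125, 109 and 198 CPM after TAC, and all 3 genes were higher in sham by the rule. The 15 cells of CD3e-/- TAC had the lowest level of each of these genes, and 1 cell gave 28.98% of the Fos reads of that group. Jun was at 2299 and 1671 CPM in sham against 1283, 715 and 1149.7 CPM after TAC, above in both sham groups by a ratio of 1.30. Ly6c2-high cells had another order. Fos overlapped between the groups, at 3947 and 3149 CPM in sham against 3385, 3337 and 2984 CPM after TAC. For Jun, at 968 and 635 CPM in sham against 1315, 1035 and 1459.9 CPM after TAC, all 3 TAC levels lay above both sham levels. Junb remained apart there at 2730.0 and 2436 CPM in sham against 1498, 1476 and 1475 CPM after TAC, as did Atf3 at 1219.8 and 1229 CPM in sham against 611, 660.5 and 638 CPM after TAC. Maff, a small Maf protein, was at 116 and 71.2 CPM in sham against 21.4, 20.1 and 19.3 CPM after TAC and had the largest ratio of this class, 2.59, although 1 cell gave 47.1% of its reads in WT sham.

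Cd209a-high cells had Fos at 3415 and 2654 CPM in sham against 2250.1, 1828 and 2108 CPM after TAC, with sham above TAC but at a ratio of 1.18. Jun overlapped, at 1732 and 1037 CPM in sham against 1319, 844 and 1361 CPM after TAC. Fosb passed the rule at 851 and 842 CPM in sham against 394, 532 and 479 CPM after TAC. Atf3 passed it at 1199 and 1197 CPM in sham against 542, 620.4 and 658 CPM after TAC. For Fos and Jun, the groups stood closer together in B cell-like cells. In B cell-like cells Fos was at 1998 and 1873 CPM in sham against 1721, 1620.3 and 1763 CPM after TAC. Jun was at 1542 and 1437 CPM in sham against 1168, 1538 and 1082 CPM after TAC and overlapped. Atf3 was at 278 and 232 CPM in sham against 48.00, 4.07 and 9.29 CPM after TAC in the same cells, but it was read in 11, 9, 7, 1 and 1 of them, and 1 cell gave 70.5% of its reads in WT sham. Without the cell with most reads in each group, a step added after the data were seen, Atf3 was at 82.1 and 147 CPM in sham against 34.2, 0 and 0 CPM after TAC.

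**Figure D2:**
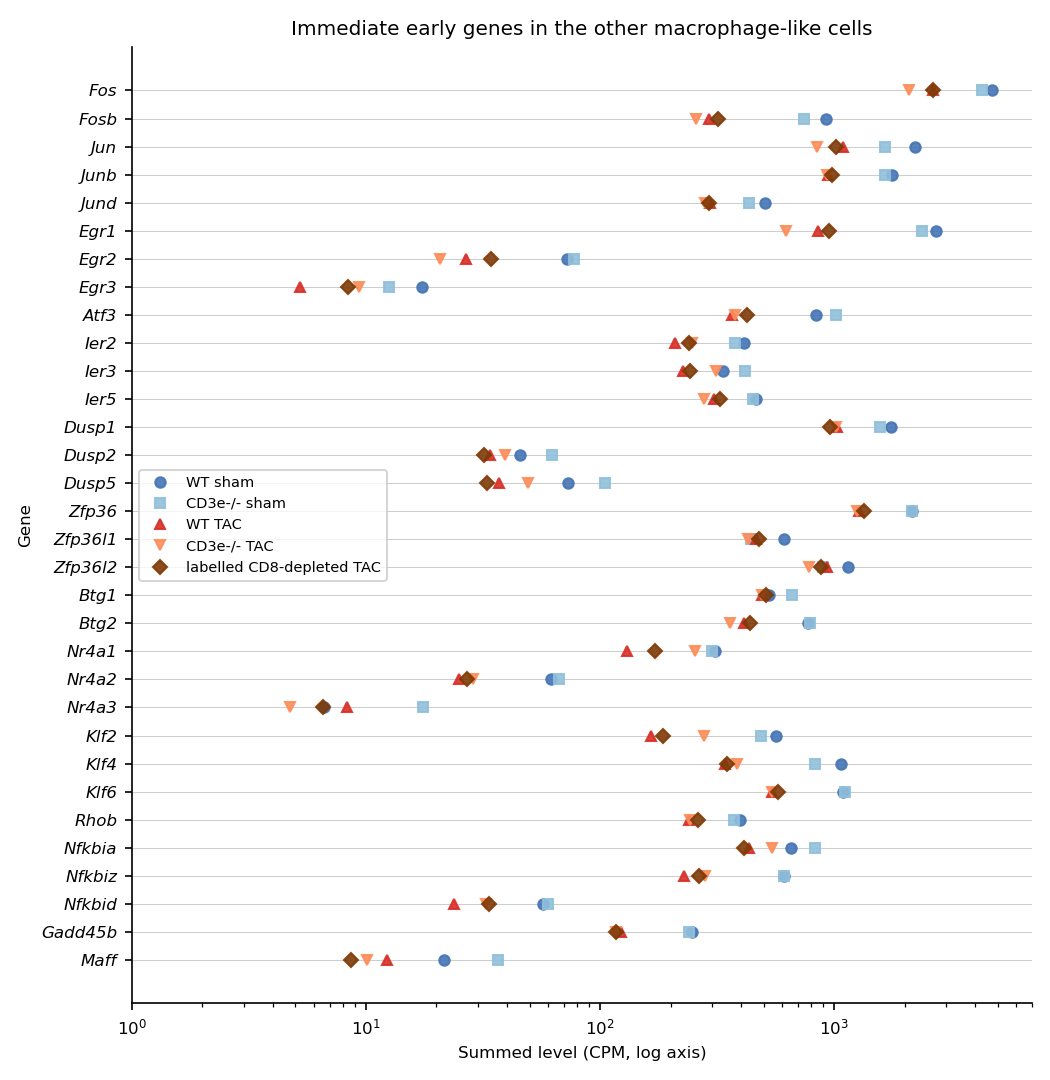
Levels of the 32 genes in the other macrophage-like cells (CPM, log axis), with 1 point per group. Blue points are the sham groups and red, orange and brown points the TAC groups; for Fosb, Egr1, Klf4 and Nfkbiz the sham points stand well to the right of the TAC points, and for Zfp36l1 and Zfp36l2 they mix.

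Egr1, a zinc finger factor induced through SRF, had the largest ratio in the other macrophage-like cells. It was at 2711 and 2384 CPM in sham against 852, 619.7 and 954 CPM after TAC, a ratio of 2.48. Egr2 was far lower in reads, at 71.9 and 77.7 CPM in sham against 26.8, 20.7 and 34.2 CPM after TAC, and passed the rule as well. Lyve1-high cells had Egr1 at 2819.5 and 3932 CPM in sham against 961, 405 and 774 CPM after TAC, again with no overlap, and Egr2 at 33.00 and 117 CPM in sham against 16.3, 6.56 and 6.36 CPM after TAC. That result for Egr2 was not stable, as its log2 ratio turned to -0.22 with gates halved and to -0.10 with the mean of single cells. Outside the macrophages Egr1 did not part the groups. It was at 543 and 294 CPM in sham against 463, 420.5 and 372 CPM after TAC in Ly6c2-high cells, 1530.1 and 1219 CPM in sham against 1021, 1267 and 1166 CPM after TAC in Cd209a-high cells and 264 and 265 CPM in sham against 265, 125 and 121 CPM after TAC in B cell-like cells. Egr3 reached 50 CPM only in B cell-like cells and over all kept cells, and was at 137 and 189 CPM in sham against 71.5, 94.2 and 67.97 CPM after TAC in the former, above in both sham groups at a ratio of 1.41.

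The IER genes encode small nuclear or signalling proteins without a shared fold of known function. Ier2 was at 412 and 379 CPM in sham against 209, 247 and 241 CPM after TAC in the other macrophage-like cells and at 416 and 464 CPM in sham against 218, 137 and 182 CPM after TAC in Lyve1-high cells, higher in sham in both. Ier3, which restrains cell death, overlapped in Lyve1-high cells at 355 and 844 CPM in sham against 152, 574 and 105 CPM after TAC. In B cell-like cells it passed the rule at 69.2 and 131 CPM in sham against 3.22, 0 and 0 CPM after TAC, but 3, 7, 1, 0 and 0 cells had a read, and 1 cell gave 77.3% of its reads in WT sham. Ier5 passed in no class, with ratios from 0.819 in B cell-like cells to 1.36 in the other macrophage-like cells.

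Dusp1, Dusp2 and Dusp5 encode phosphatases that switch off MAP kinases. Dusp1 in the other macrophage-like cells was at 1751 and 1572 CPM in sham against 1027, 1014 and 960.5 CPM after TAC, a ratio of 1.53, and in Lyve1-high cells at 1546 and 1704 CPM in sham against 814, 387 and 453 CPM after TAC. In Ly6c2-high cells it overlapped, at 1299 and 1349.6 CPM in sham against 1398, 1270.4 and 1100.5 CPM after TAC. Cd209a-high cells had it at 1431 and 1154 CPM in sham against 1019, 1101 and 900.1 CPM after TAC and B cell-like cells at 729 and 758 CPM in sham against 665, 554 and 404 CPM after TAC, sham above TAC in both and outside the rule. Dusp5, an inhibitor of nuclear ERK, passed in the classes in which Dusp1 did not. It did so in Ly6c2-high cells at 167 and 219 CPM in sham against 79.2, 66.8 and 54.6 CPM after TAC, in Cd209a-high cells at 251 and 229 CPM in sham against 73.7, 132 and 135 CPM after TAC and in B cell-like cells at 327 and 315 CPM in sham against 96.7, 80.3 and 186 CPM after TAC, but in the other macrophage-like cells it was outside the rule, at 73.2 and 105 CPM in sham against 37.2, 49.2 and 33.03 CPM after TAC. Dusp5 and Dusp2 were under 50 CPM in Lyve1-high cells. Dusp2 did not pass elsewhere, and ran from 1.13 in the other macrophage-like cells to 1.45 in Ly6c2-high cells by ratio.

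**Figure D3:**
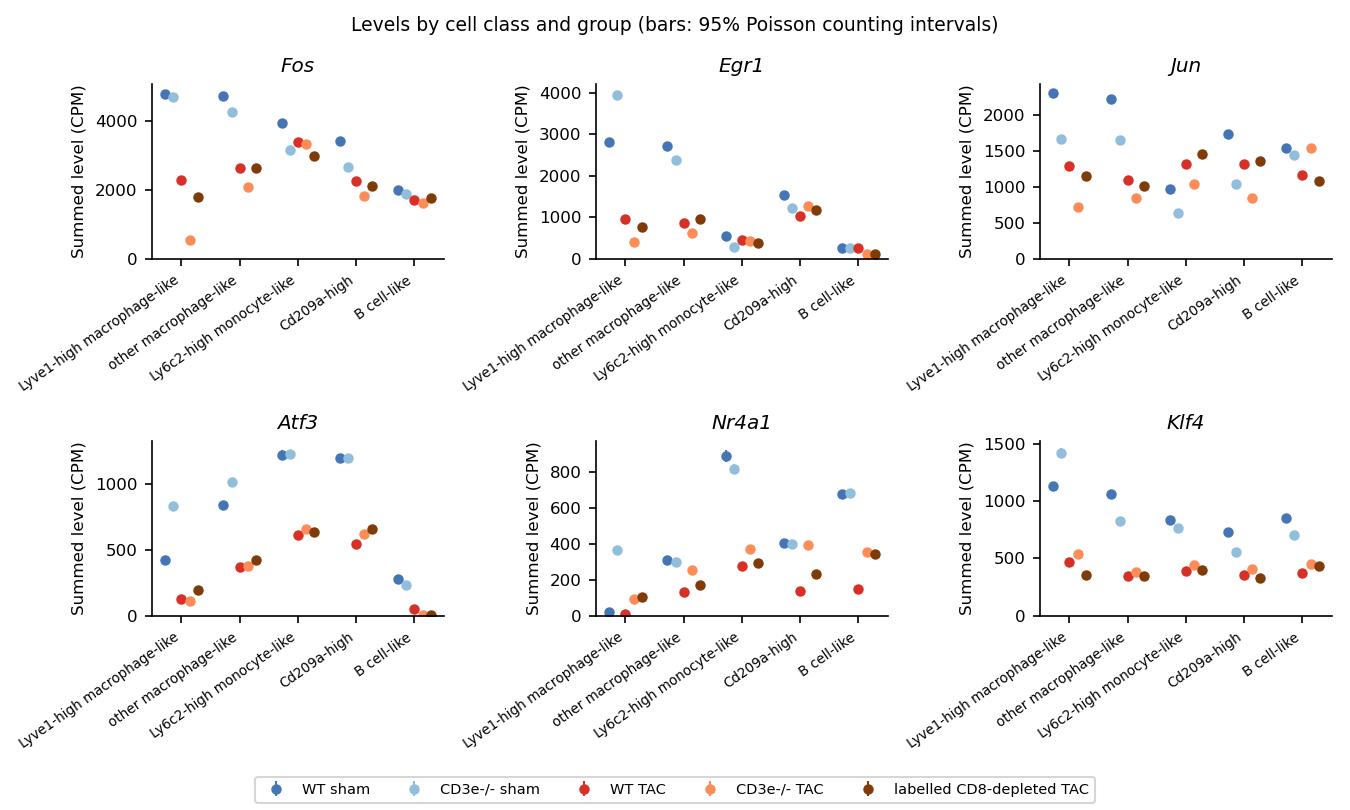
Summed levels (CPM, linear axes from 0) of 6 genes in 5 cell classes, 1 point per group with 95% Poisson intervals, most of which are smaller than the points. Fos and Egr1 part sham (blue) from TAC (red, orange and brown) by the widest gaps in both macrophage-like classes, Atf3 and Klf4 do so in all 5 classes shown, and Jun is higher after TAC in the Ly6c2-high cells.

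Zfp36 encodes tristetraprolin, which binds AU-rich mRNAs such as that of Tnf and brings about their decay. It was at 2151 and 2152 CPM in sham against 1283, 1251 and 1348 CPM after TAC in the other macrophage-like cells and 1730.0 and 2041 CPM in sham against 930.4, 408 and 624 CPM after TAC in Lyve1-high cells, higher in sham in both. It stayed outside the rule at 2366 and 2200.4 CPM in sham against 1851, 1741 and 1768 CPM after TAC in Ly6c2-high cells, 3129 and 2605 CPM in sham against 1965, 2193 and 1949 CPM after TAC in Cd209a-high cells and 1223 and 1165 CPM in sham against 1119, 862 and 1039 CPM after TAC in B cell-like cells. Its relatives Zfp36l1 and Zfp36l2 passed in no class. In the other macrophage-like cells Zfp36l1 was at 610.5 and 442 CPM in sham against 462, 427 and 477 CPM after TAC and Zfp36l2 at 1143 and 892 CPM in sham against 929, 780.2 and 879 CPM after TAC, with overlapping groups. Btg2, an antiproliferative partner of mRNA deadenylation, was at 770.0 and 786 CPM in sham against 412, 359.6 and 436 CPM after TAC in the other macrophage-like cells and 682 and 553 CPM in sham against 284, 153 and 147 CPM after TAC in Lyve1-high cells. Btg1, its relative, passed only in Cd209a-high cells, at 782 and 796 CPM in sham against 489, 437 and 458 CPM after TAC.

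Nr4a1, Nr4a2 and Nr4a3 are orphan nuclear receptors, and Nr4a1 is needed for Ly6c-low monocytes and is induced by antigen receptor signals in lymphocytes. Nr4a1 was highest among the classes in the sham groups of Ly6c2-high cells, at 891 and 816 CPM in sham against 276, 370.2 and 293 CPM after TAC, a ratio of 2.17. B cell-like cells had 676 and 686 CPM in sham against 147, 358 and 345 CPM after TAC, with no overlap. In the other macrophage-like cells it was at 310.4 and 301 CPM in sham against 131, 253 and 172 CPM after TAC, where CD3e-/- TAC stood closest to sham. The same held in Cd209a-high cells, at 403 and 401 CPM in sham against 137, 393 and 230.4 CPM after TAC. Lyve1-high cells had 21.4 and 366 CPM in sham against 10.3, 91.3 and 103 CPM after TAC, which overlapped, and 1 cell gave 44.3% of the reads in CD3e-/- sham. Nr4a2 passed in the other macrophage-like cells at 61.8 and 66.98 CPM in sham against 25.03, 28.5 and 27.1 CPM after TAC, in Ly6c2-high cells at 239 and 189 CPM in sham against 50.3, 67.9 and 76.4 CPM after TAC and in Cd209a-high cells at 128 and 139 CPM in sham against 31.97, 44.3 and 37.7 CPM after TAC. Nr4a3 passed in Cd209a-high cells alone, at 36.6 and 91.8 CPM in sham against 13.9, 10.6 and 4.51 CPM after TAC.

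Klf2 and Klf4 encode Krüppel-like factors that restrain inflammatory genes in monocytes and macrophages. Klf2 in the other macrophage-like cells was at 564 and 486 CPM in sham against 165, 277 and 186 CPM after TAC, a ratio of 1.73. It passed in Cd209a-high cells at 360.5 and 313 CPM in sham against 153, 166 and 149 CPM after TAC. It did not pass at 673 and 879 CPM in sham against 411, 613 and 368 CPM after TAC in Lyve1-high cells, 223 and 461 CPM in sham against 197, 269 and 179 CPM after TAC in Ly6c2-high cells and 2280.0 and 2398 CPM in sham against 1597, 2127 and 2028 CPM after TAC in B cell-like cells. Klf4 was at 1066 and 829 CPM in sham against 343, 384 and 349 CPM after TAC in the other macrophage-like cells, a ratio of 2.13, and at 1130.4 and 1420.5 CPM in sham against 469.6, 539 and 352 CPM after TAC in Lyve1-high cells. It also parted the groups in Ly6c2-high cells at 839 and 766 CPM in sham against 389.8, 446 and 403 CPM after TAC and in B cell-like cells at 849 and 706 CPM in sham against 370.0, 452 and 430.1 CPM after TAC. In Cd209a-high cells, at 732 and 558 CPM in sham against 353, 411 and 327 CPM after TAC, its ratio was 1.35. Klf6, a further family member, passed in Lyve1-high cells at 967 and 1149 CPM in sham against 579, 409 and 582 CPM after TAC, in the other macrophage-like cells at 1086 and 1117 CPM in sham against 545, 543 and 575 CPM after TAC and in Cd209a-high cells at 1119 and 1277 CPM in sham against 543, 574 and 615 CPM after TAC. Rhob, an endosomal small GTPase, passed in B cell-like cells only, at 639.9 and 557 CPM in sham against 353, 338 and 353 CPM after TAC.

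Nfkbia encodes IkBa, the inhibitor that holds NF-kB in the cytoplasm, and passed in no class. It was at 656 and 830.3 CPM in sham against 434, 543 and 412 CPM after TAC in the other macrophage-like cells, with sham above TAC at a ratio of 1.20. It was at 316 and 828 CPM in sham against 175, 561 and 154 CPM after TAC in Lyve1-high cells, 795 and 816 CPM in sham against 725, 483 and 416 CPM after TAC in Ly6c2-high cells, 1369 and 1124 CPM in sham against 976, 1120.0 and 1078 CPM after TAC in Cd209a-high cells and 529 and 514 CPM in sham against 333, 517 and 384 CPM after TAC in B cell-like cells. Nfkbiz and Nfkbid encode nuclear IkB proteins that modify the choice of NF-kB targets. Nfkbiz passed in the other macrophage-like cells at 610.0 and 609 CPM in sham against 229, 279.9 and 265 CPM after TAC and in Lyve1-high cells at 482 and 941 CPM in sham against 183, 199 and 96.5 CPM after TAC. Nfkbid passed in the same classes, at 57.2 and 59.9 CPM in sham against 23.7, 32.4 and 33.5 CPM after TAC in the former and 45.3 and 69.1 CPM in sham against 16.97, 18.1 and 15.5 CPM after TAC in the latter. Gadd45b, which acts on the p38 and JNK pathways under stress, was at 247 and 239.9 CPM in sham against 122, 117 and 117 CPM after TAC in the other macrophage-like cells and 193 and 251 CPM in sham against 62.3, 14.9 and 49.2 CPM after TAC in Lyve1-high cells. It passed also in Ly6c2-high cells at 412 and 289 CPM in sham against 183, 141 and 127 CPM after TAC, Cd209a-high cells at 454 and 472 CPM in sham against 254, 236 and 229.6 CPM after TAC and B cell-like cells at 150.3 and 201 CPM in sham against 55.9, 94.4 and 86.03 CPM after TAC. Without the cell with most of its reads in each group the B cell-like levels were 94.8 and 164 CPM in sham against 44.6, 63.7 and 69.6 CPM after TAC, and the ratio of 1.32 no longer passed.

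The levels of single cells were compared after each cell was thinned at random to 35894 reads, which left out 568 shallower cells. The 32 genes took a median of 1.81% and 2.09% of the reads of the other macrophage-like cells in sham, and 0.925%, 1.06% and 1.18% after TAC (unthinned, 1.82% and 2.02% against 0.861%, 1.01% and 1.15%). The spread within a group was wide. In WT sham the 10th percentile was 0.341% and the 90th 7.18%, and in WT TAC they were 0.267% and 3.17%. The low ends of the groups lay close and the high ends far apart. In Ly6c2-high cells the 10th and 90th percentiles were 1.62% and 3.60% in WT sham and 0.913% and 2.92% in WT TAC.

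**Figure D4:**
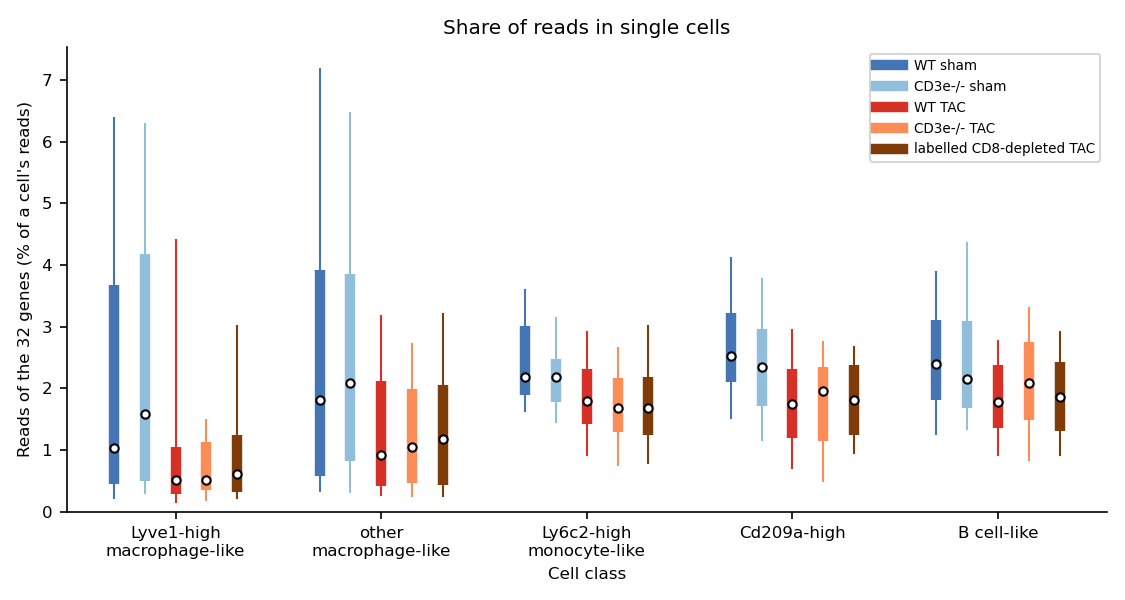
Reads of the 32 genes as a percentage of the reads of a cell thinned to 35894 reads, by class and group. Circles are medians, thick bars the 25th to 75th and thin lines the 10th to 90th percentiles of cells; in the other macrophage-like cells the sham lines reach 7.18% and 6.46% and the TAC lines 2.71% to 3.21%.

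Shares of cells with at least 500 CPM, which is 18 reads after thinning, were counted in the other macrophage-like cells. For Fos they were 73.5% and 81.2% of cells in sham against 63.6%, 66.4% and 62.7% after TAC, and the interval was 68.8% to 77.8% in WT sham and 60.2% to 67.0% in WT TAC. Egr1 parted the groups more, at 51.4% and 56.6% of cells in sham against 33.2%, 31.5% and 35.3% after TAC. The shares for Jun were 65.2% and 61.00% of cells in sham against 56.5%, 55.4% and 55.1% after TAC, for Atf3 38.7% and 46.6% of cells in sham against 25.6%, 26.1% and 24.6% after TAC and for Klf4 45.97% and 45.5% of cells in sham against 22.7%, 23.9% and 22.8% after TAC. Cells with high Fos, Jun and Egr1 together made up 45.5% and 45.7% of cells in sham and 25.5%, 21.8% and 25.3% after TAC. Among Fos-high cells, 67.5% and 66.8% were also Egr1-high in sham and 50.1%, 43.7% and 52.8% after TAC. In Fos-low cells these shares were 6.86% and 12.5% in sham and 3.79%, 7.38% and 6.04% after TAC, so that Egr1-high cells were more frequent among Fos-high than among Fos-low cells in every group. Egr1-high cells were 8% to 16.5% of B cell-like cells in the 5 groups, and no class is known to lack these genes. The genes closest to Fos across thinned cells of WT sham, among the 23 at 200 CPM or more in a group, were Dusp1, Zfp36, Junb and Fosb. Their rank correlations with Fos were 0.83, 0.80, 0.77 and 0.81 over the 385 cells of WT sham and 0.82, 0.82, 0.77 and 0.67 over the 797 cells of WT TAC. These cells share 1 library, and the correlations are given as a description. For 22 of the 32 genes the matrix had no value between 0 and a floor of 5 to 17 reads, beside 748 of all 27809 genes (2.69%). The other 10 go down to 1 read. Whether the error correction set this floor is not stated. For Fos the floor of 17 reads was 225 CPM at the median depth of WT sham and 144 CPM at that of CD3e-/- TAC. Shares of cells with any read were therefore not compared, and the part of the floor in levels and correlations was not tested.

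The other macrophage-like cells were parted further by Ccr2, the receptor that marks macrophages of recent monocyte origin, at 500 CPM. This split was chosen after the data were seen. In cells under that limit (277, 199, 343, 189 and 205 cells), 19 of the genes were higher in sham by the rule, beside 1.37% of all genes compared there. In cells above it (173, 186, 527, 289 and 224 cells) the count was 10, beside 1.60%. Fos in the Ccr2-low cells was at 5429.6 and 5316 CPM in sham against 1613, 1542 and 2085 CPM after TAC, and in the Ccr2-high cells at 3999.7 and 3521 CPM in sham against 3168, 2427 and 3015 CPM after TAC. Egr1 was at 3688 and 3542 CPM in sham against 753, 519.5 and 1004 CPM after TAC in the Ccr2-low cells and 1684 and 1554 CPM in sham against 903, 681 and 921 CPM after TAC in the Ccr2-high cells. Fos and Egr1 were thus higher in the Ccr2-low than in the Ccr2-high cells in sham, and Fos was lower in them after TAC. Of 29 genes compared, 18 and 21 were higher in the Ccr2-low than in the Ccr2-high cells of WT and CD3e-/- sham, and 1, 7 and 2 were so in WT, CD3e-/- and labelled CD8-depleted TAC. Of all genes compared, 47.4% and 49.3% were higher in the Ccr2-low cells of both sham groups, and 44.1%, 44% and 47.4% in those of the TAC groups. For 10 of the 29, the Ccr2-low cells were the higher ones in both sham groups and the lower ones in all 3 TAC groups, a pattern of 3.91% of all genes compared. Atf3 kept a gap between sham and TAC in both kinds of cell, at 741 and 1032 CPM in sham against 234, 299 and 289 CPM after TAC in the Ccr2-low cells and 941 and 1002 CPM in sham against 437, 423 and 514 CPM after TAC in the Ccr2-high cells.

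**Figure D5:**
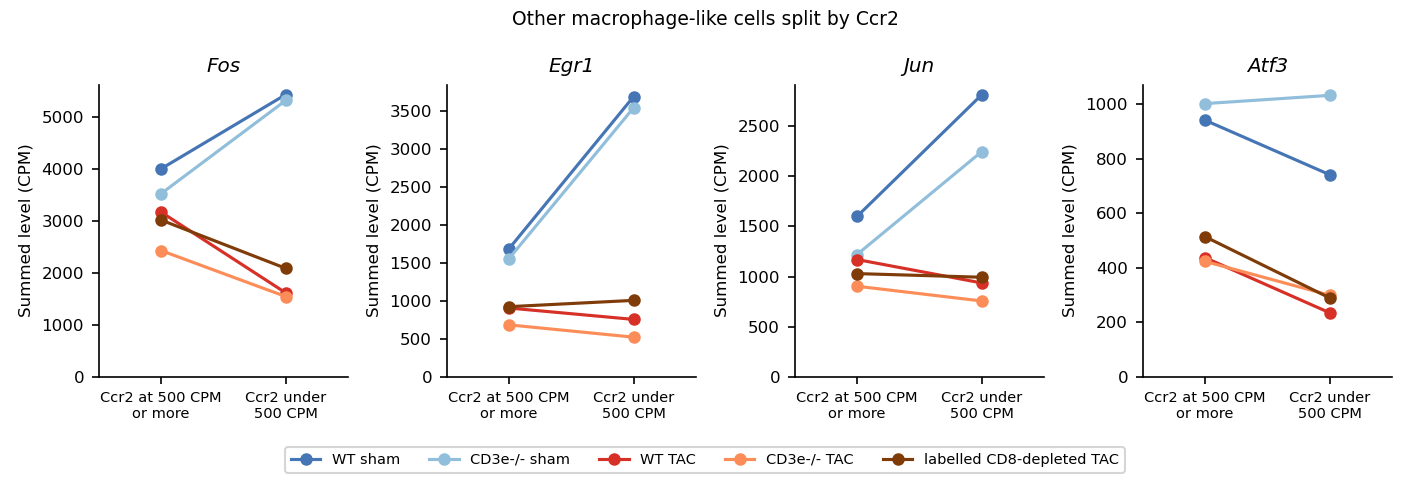
Summed levels (CPM, linear axes from 0) of 4 genes in the other macrophage-like cells with Ccr2 at 500 CPM or more (left) and under 500 CPM (right), with 1 line per group. The sham lines of Fos, Egr1 and Jun rise to the right and the TAC lines of Fos and Jun fall, and the gap between sham and TAC is wider on the right.

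Each contrast of TAC to sham was also read alone in the other macrophage-like cells. The level after TAC was at least 1.5 times lower for 22 of 29 genes in WT, beside 2.98% of all genes, for 23 in CD3e-/- mice, beside 4.08%, and for 22 in the labelled CD8-depleted group against WT sham, beside 2.45%. The first and the last contrast share WT sham. The median log2 ratio over the 32 genes was -0.86, -0.80 and -0.81, and over all genes compared it was 0.04, 0.06 and 0.05. In these cells few genes of the set differed between the genotypes, as held for all genes compared. No gene of the set differed 1.5 times between CD3e-/- and WT sham, beside 2.83% of all genes, and none between labelled CD8-depleted and WT TAC, beside 0.676%. Nr4a1, at 253 CPM in CD3e-/- TAC and 131 CPM in WT TAC, and Klf2, at 277.0 and 165 CPM, were the 2 genes that differed between these groups, beside 1.83% of all genes, and both were higher in CD3e-/- TAC. Smaller classes differed more. In Lyve1-high cells 14 of 26 genes were lower and 3 higher in CD3e-/- than in WT TAC, beside 18.5% and 21.0% of all genes, with 15 cells in CD3e-/- TAC. In B cell-like cells 4 of 28 were lower and 6 higher, beside 14.3% and 11.9%. Single contrasts of TAC to sham (WT, CD3e-/- and labelled CD8-depleted) were also read in other classes. In Cd209a-high cells 20, 12 and 22 of 31 genes were 1.5 times lower (4.42%, 7.47% and 5.99% of all genes). Lyve1-high cells had 20, 20 and 22 of 26 (13.2%, 18.5% and 12.8%). Ly6c2-high cells had 14, 17 and 15 of 30 (12.5%, 11.4% and 13.8%). B cell-like cells had 14, 11 and 12 of 28 (9.78%, 12.7% and 10.9%). In each, at most 2 were higher, beside 7.86% to 26.4%.

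Other early response genes, which were listed by name, passed the rule in part. Among the other macrophage-like cells 3 of 16 compared were higher in sham and 0 in TAC, beside 1.33% and 1.35% of all genes. They were Ppp1r15a, a phosphatase subunit of the stress response, at 531 and 439 CPM in sham against 194, 177 and 187 CPM after TAC, as well as Tnfaip3, the NF-kB inhibitor A20, at 132 and 143 CPM in sham against 59.5, 69.5 and 69.5 CPM after TAC, and Tob1, a BTG relative, at 61.9 and 64.7 CPM in sham against 34.2, 29.3 and 34.6 CPM after TAC. In Lyve1-high cells 3 of 18 passed, beside 1.09% of all genes, namely Ppp1r15a, Rgs2 and Socs3, the last a cytokine signalling inhibitor, at 358 and 624 CPM in sham against 197, 165 and 212 CPM after TAC. In Ly6c2-high cells 6 of 18 passed, beside 2.04%, namely Fosl2, Csrnp1, Ppp1r15a, Tnfaip3, Ets2 and Bhlhe40, with Csrnp1, an AXIN1-responsive nuclear protein, at 441 and 600.3 CPM in sham against 197, 167 and 196 CPM after TAC. In Cd209a-high cells 1 of 18 passed, Csrnp1, beside 1.36%, and in B cell-like cells 1 of 15, Tnfaip3, beside 0.902%. Of the factors upstream of the response, such as Srf, Creb1, the MAP kinases and Rela, 12 to 13 were compared in each class and none passed in either direction in any of them. Of all genes, 0.902% to 2.04% were higher in sham and 0.431% to 3.29% in TAC in these classes, so 0 of 12 or 13 lies near the share over all genes.

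Cytokine genes that early response factors act on were counted too. For the other macrophage-like cells 3 of 7 compared were higher in sham and none in TAC, beside 1.33% and 1.35% of all genes. Tnf was at 95.99 and 122 CPM in sham against 52.7, 38.3 and 51.9 CPM after TAC, and the chemokine genes Ccl3 and Ccl4 were at 469.7 and 637 CPM in sham against 261, 179 and 240.1 CPM after TAC and 295 and 452 CPM in sham against 163, 128 and 139 CPM after TAC. Il1b was at 459 and 819 CPM in sham against 423, 432 and 455 CPM after TAC, and only CD3e-/- sham stood apart. In Lyve1-high cells 2 of 5 passed, beside 1.09% of all genes. They were Tnf at 119 and 118 CPM in sham against 14.8, 21.8 and 25.2 CPM after TAC and Ccl4 at 136 and 73.9 CPM in sham against 24.4, 41.4 and 20.7 CPM after TAC, the latter read in 7 cells or fewer of each group. In Cd209a-high cells Ccl4 and Il6 passed (2 of 8, beside 1.36% of all genes), in Ly6c2-high cells Areg (1 of 7, beside 2.04%), which 3 cells or fewer of each group expressed, and in B cell-like cells 0 of 1 (beside 0.902%).

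Heat shock genes, which respond to warmth and other stress during cell preparation, passed the rule in part in the other macrophage-like cells and in no case in Lyve1-high cells. Of 10 such genes in the other macrophage-like cells, 3 were higher in sham and none in TAC, beside 1.33% and 1.35% of all genes. Hspa1a was at 769 and 533 CPM in sham against 199, 85.2 and 189.6 CPM after TAC, Hspa1b at 146 and 103 CPM in sham against 39.7, 20.3 and 31.7 CPM after TAC and Dnajb1 at 139 and 116 CPM in sham against 65.9, 53.3 and 72.5 CPM after TAC. Hspa1a and Hspa1b are nearly identical in sequence, so how reads were split between them is uncertain. Hspa8 and Hsp90ab1 did not pass, at 1390.3 and 1184 CPM in sham against 1460.5, 1673 and 1612 CPM after TAC and 1616 and 1657 CPM in sham against 1553, 1507 and 1551 CPM after TAC. Cells with at least 50 CPM of Hspa1a and Hspa1b together made up 50.2% and 46.0% of these cells in sham, and 28.3%, 24.7% and 28.2% after TAC. Among cells below that limit, chosen after the data were seen, 10 of the early genes were higher in sham in place of 18, beside 1.01% of all genes. Fos was there at 3237 and 3097 CPM in sham against 2068, 1931 and 2077 CPM after TAC, Egr1 at 1223 and 1370.0 CPM in sham against 583, 623 and 734 CPM after TAC and Atf3 at 674 and 816 CPM in sham against 303, 349 and 333 CPM after TAC. Sham lay above TAC in these cells for all 3 genes, by smaller ratios than in all cells of the class. In Lyve1-high cells, where 57.3% and 35.5% of sham cells and 23.5%, 26.7% and 25.8% of TAC cells had such reads, 9 genes were left of 15, beside 1.54% of all genes. In Ly6c2-high cells 28.0% and 38.2% of sham cells and 38.6%, 35.9% and 40.1% of TAC cells had heat shock reads. There 0 of 10 heat shock genes were higher in sham, beside 2.04% of all genes, and Hsph1 was higher in TAC, beside 3.29%. In Cd209a-high cells the shares were 60.6% and 41.5% in sham and 51.5%, 51.2% and 44.6% after TAC, and in B cell-like cells 1.49% to 6.85%. No heat shock gene passed in Lyve1-high (9 compared), Cd209a-high (10) or B cell-like cells (8). Of all genes there, 1.09%, 1.36% and 0.902% were higher in sham and 0.797%, 1.76% and 0.431% in TAC. The part of cell preparation in these differences was not tested.

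Markers of cell types differed between the groups in some classes. In Lyve1-high cells the dendritic cell list of 6 genes summed to 1947 and 3828 CPM in sham and 686, 161 and 832 CPM after TAC, nearly all from H2-Ab1, with Cd209a and Ccr7 at 0 in all 5 groups. That list summed in the other macrophage-like cells to 6542 and 7655 CPM in sham and 3922 to 4777 CPM after TAC. In Ly6c2-high cells the macrophage list of 7 genes summed to 30470 and 28933 CPM in sham and 15613 to 18179 CPM after TAC, nearly all from Lyz2. The 4 fibroblast genes in Cd209a-high cells summed to 580.3 CPM in WT TAC and to 0 to 2.24 CPM in the other 4 groups. The T cell list in B cell-like cells summed to 253 CPM in WT TAC and 88.4 CPM in labelled CD8-depleted TAC, and to 0.479 to 3.69 CPM in the remaining groups. The part of these markers in the differences was not tested.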

How the data were processed

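Values were whole-number read counts for each gene in each cell barcode, deposited by the authors without normalization, after filtering barcodes at an inflection point, correcting errors by read distribution and assigning hashtags. The submitters' processing notes name cutadapt 2.10, Bowtie2 2.4.2 and GRCm38. The matrix had 5363 columns, of which 40 called doublets (0.746%) and 8 without a hashtag were left out; 0 other columns of samples were left unused. The methods of the study describe a larger share of doublets. No further doublet caller was run, and cells with genes of more than 1 lineage were left out only as far as the gates do so. Notes that accompany the matrix link each hashtag to its group.

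A gene was kept if 5 cells had it, and a cell if it had 500 genes and its mitochondrial reads were at most a share of 0.4. Gates on single-cell CPM were Csf1r at 200, Lyz2 at 1500 (both with Cd79a under 200), Lyve1 at 100, Ly6c2 at 500, Cd209a at 100 and Cd79a at 500. Lyve1-high cells lay under the Ly6c2 limit, Ly6c2-high cells under the Lyve1 limit, and the other macrophage-like cells under the limits of Lyve1, Ly6c2 and Cd209a. Cd209a-high cells, under the limits of Lyve1 and Ly6c2, needed no Csf1r or Lyz2, and B cell-like cells lay under the limits of Csf1r, Lyz2 and Lyve1. Reads were summed per class and group, with a pseudocount of 10 CPM, a fold of 1.5 and a minimum of 50 CPM. All 32 genes were reported, 10 of them (Fos, Jun, Egr1, Atf3, Dusp1, Nr4a1, Zfp36, Klf2, Klf4 and Nfkbia) in full in every class and up to 5 more per class by the largest ratio; further members were given where their role was described. The genes and lists were chosen with earlier results of these data known. The rule and the Poisson intervals were tested on simulated Poisson counts. These lack the spread between cells of the data, so that test does not cover it. Steps were run in Python 3.11.15 with pandas 2.3.3, scipy 1.17.1 and numpy 2.4.6, and figures were drawn with matplotlib 3.10.9. Alternatives changed gates, filters, scaling, pseudocount, fold, depth and groups.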

Additional observations from a re-analysis of the deposited data

Results flagged for a closer look

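Jun, Zfp36l1 and Zfp36l2 lay on opposite sides of sham after TAC in different cell classes, with all 3 TAC levels above both sham levels in 1 class and below both in another. The difference between classes was not tested. For Jun, the log2 ratio of the lowest TAC level to the higher sham level was 0.096 in Ly6c2-high cells, while the lower sham level exceeded the highest TAC level by 0.38 in Lyve1-high cells and 0.59 in the other macrophage-like cells. For Zfp36l1, the lowest TAC level exceeded the higher sham level by 0.17 in Ly6c2-high cells, and the lower sham level exceeded the highest TAC level by 0.0014 in Cd209a-high cells and 0.046 in B cell-like cells. For Zfp36l2, the lowest TAC level was above the higher sham level by 0.085 in Cd209a-high cells, and the lower sham level was above the highest TAC level by 0.053 in Lyve1-high cells and 0.0073 in Ly6c2-high cells. All values are on the log2 scale with 10 CPM added, and only that of Jun in the other macrophage-like cells passed the 1.5-fold rule.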

How the results depend on the processing

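The counts of genes higher in sham kept within 1.5 times of their main value under 14 of 16 alternatives in Lyve1-high, Ly6c2-high, Cd209a-high and B cell-like cells, 15 of 18 in the other macrophage-like cells and 15 of 16 over all kept cells, and 0 genes were higher in TAC under any of them. A fold of 2 left 7 genes in Lyve1-high cells, 4 in the other macrophage-like cells, 3 in Ly6c2-high cells, 1 in Cd209a-high cells, 2 in B cell-like cells and 6 over all kept cells, because fewer genes reach it; of all genes 0.311%, 0.326%, 0.222%, 0.393%, 0.185% and 0.734% did. The mean CPM of single cells left 1 gene in B cell-like cells (0.709% of all genes). Without the CD3e-/- groups, 14 genes were higher in sham in Ly6c2-high cells and 18 in Cd209a-high cells, where 9.94% and 3.08% of all genes were. The rule then had fewer groups to part, and the cause of the higher counts was not tested. Cells with little Hspa1a and Hspa1b, an alternative added after the data were seen, left 9 genes in Lyve1-high and 10 in the other macrophage-like cells, and Ccr2-high cells left 10; the cause was not tested. Of 1236 log2 ratios of called genes under these alternatives, 912 stayed within the larger of their counting error and 0.1, 317 moved further and 7 turned. They turned for Egr2 in Lyve1-high cells with gates halved (-0.22) and with the mean of single cells (-0.10), for Atf3 in B cell-like cells with gates doubled (-0.41), and, in cells with little Hspa1a and Hspa1b, for Klf4 (-0.63) and Nfkbiz (-0.070) in Lyve1-high cells and Fosb (-0.090) and Nr4a3 (-0.049) in Cd209a-high cells. The cause of these was not tested. No paired analysis was possible because each group was 1 sample. Counting error alone is covered, and classes of 15 to 34 cells in a group rest on few cells.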
